A study of Mus musculus with 6 samples.

Results

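The 9 genes described here encode the parts of the interferon signalling chain that sit between the cytokine and its target genes. They are the receptor chains Ifnar1, Ifnar2, Ifngr1 and Ifngr2, the receptor-bound kinases Jak1 and Tyk2, the transcription factor Stat2, and the feedback inhibitors Socs1 and Socs3. The members were chosen by gene symbol, and all 9 were found among the 22609 genes in the files. RNA was sequenced from adult liver of C57BL/6 mice, with 3 wild type libraries and 3 libraries from mice lacking Igfbp7 (insulin-like growth factor binding protein 7, a secreted protein). Per the labels, the null allele was made by Cre-loxP recombination in a pure strain; no Cre driver or restriction to a cell type is given, and neither age beyond adult nor sex is stated. No label says whether the 3 libraries of a genotype came from separate animals, so p-values measure the spread between these libraries, which may be technical.

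Type I interferons bind the pair of chains Ifnar1 and Ifnar2, which carry Tyk2 and Jak1, and the activated kinases phosphorylate Stat2. Stat2 works with Irf9 in a complex called ISGF3, which binds interferon-stimulated response elements. Interferon-gamma binds Ifngr1 and Ifngr2, which carry Jak1 and Jak2, and acts mainly on genes with gamma-activated sites. Socs1 inhibits the kinases directly and restrains interferon-gamma signalling, whereas Socs3 binds gp130, the shared chain of the interleukin-6 receptor family, and restrains Stat3, the factor behind much of the hepatic acute phase response.

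Socs1, Stat2 and Socs3 are targets of this pathway as well as parts of it, so the 250 bases before their annotated starts are shown, from the RefSeq promoter table of assembly GRCm38.p6, which held all 9 members. Capitals mark matches, on either strand, to 3 patterns: TTCNNNGAA (the core of a gamma-activated site), TTCNNNNGAA (the same arms set 1 base further apart) and GAAANNGAAA (the core of an interferon-stimulated response element).
Socs1, chr16:10785537-10785786, minus strand: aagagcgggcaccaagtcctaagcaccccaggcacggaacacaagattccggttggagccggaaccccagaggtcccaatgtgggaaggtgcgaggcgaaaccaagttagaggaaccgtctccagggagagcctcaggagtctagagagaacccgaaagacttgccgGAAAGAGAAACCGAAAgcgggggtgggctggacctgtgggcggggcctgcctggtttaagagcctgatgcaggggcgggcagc
Stat2, chr10:128270248-128270497, plus strand: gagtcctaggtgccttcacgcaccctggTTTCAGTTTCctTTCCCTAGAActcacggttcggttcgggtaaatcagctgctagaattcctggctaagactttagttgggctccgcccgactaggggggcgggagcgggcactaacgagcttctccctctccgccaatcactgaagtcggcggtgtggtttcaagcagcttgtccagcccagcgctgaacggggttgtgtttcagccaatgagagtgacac
Socs3, chr11:117969367-117969616, minus strand: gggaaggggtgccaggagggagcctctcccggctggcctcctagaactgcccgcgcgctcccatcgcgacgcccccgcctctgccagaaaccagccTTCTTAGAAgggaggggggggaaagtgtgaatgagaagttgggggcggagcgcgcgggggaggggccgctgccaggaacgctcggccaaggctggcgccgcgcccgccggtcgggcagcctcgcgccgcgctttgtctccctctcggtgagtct
In Socs1 the capitals cover GAAAGAGAAA and GAAACCGAAA, which overlap, the first beginning 83 bases before the start and the second 77. In Stat2 they cover TTTCAGTTTC, beginning 222 bases before the start, and TTCCCTAGAA, beginning 210 bases before it. In Socs3 they cover TTCTTAGAA, beginning 154 bases before the start. Of the other 6 members, Ifnar2 held TTCCTGGAA, Ifngr2 held TTCCCGGGAA, and the windows of Ifnar1, Ifngr1, Jak1 and Tyk2 held none of the 3 patterns. Among all 32851 windows of this length in the table, TTCNNNGAA was present in 7.02%, TTCNNNNGAA in 5.85% and GAAANNGAAA in 2.98%. Each pattern occurred in 2 of the 9 members' windows. A match describes the letters and is no evidence of binding.

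The libraries held 16712568 to 22419411 gene counts. Igfbp7 had 1438, 1705 and 1055 counts in the wild type libraries against 5, 2 and 9 in the knockout libraries, as the labels require. Wild type replicate 1 stood apart in clock genes, named after their values were seen: Arntl, a core clock factor, was at 17.6 CPM there and at 1.91 to 2.85 CPM in the other 5 libraries. CPM is a count scaled to library size, here by the trimmed mean of M-values (TMM). Where 3 values are given for a genotype, they stand in replicate order. Albumin, the defining hepatocyte product, ranged from 61052 to 85469 CPM (Alb). Because the tissue is bulk liver, fewer cells of a type and less RNA per cell cannot be told apart in any of the values that follow.

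None of the tested members passed the test between the genotypes, and the receptor chains, kinases and Stat2 lay close to a ratio of 1. Of the 9 members 8 had enough counts to be tested, and edgeR's quasi-likelihood test called 0 of these 8 at an adjusted p under 0.05, against 0.216% of all 12522 genes tested. At an unadjusted p under 0.05 the count was 0 of 8, against 15.4% of all genes, and DESeq2 also called 0, against 3.54%. In 0 of the 8 did the 2 groups of 3 values separate without overlap, which they did in 20.7% of all genes. On the lower side of the wild type mean were 4 of the 8, against 49.7% of all genes. The median absolute log2 fold change of the 8 was 0.03, and that of all tested genes 0.15. The 8 had at least 178 counts in every library and all tested genes include scarcer ones, so these medians are not matched for level.

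The type I receptor chains had nearly equal levels in the 2 genotypes. Ifnar1 was at 52.8, 53.9 and 57.4 CPM in the wild type libraries and 52.6, 60.6 and 51.1 CPM in the knockout libraries. Its means were 54.7 ± 2.4 and 54.8 ± 5.1 CPM (SD, n = 3 each). The highest and the lowest value were both knockout libraries, and the groups overlapped fully. The knockout level was 1.001 times the wild type level, with a 95% interval of 0.860 to 1.16 (edgeR adjusted p = 0.997). Ifnar2, the chain that binds type I interferon with higher affinity, was at 64.4, 66.8 and 61.0 CPM in the wild type libraries and 70.6, 63.4 and 57.8 CPM in the knockout libraries. Here too the knockout libraries held both extremes, and the fold was 0.998 with an interval of 0.857 to 1.16 (edgeR adjusted p = 0.995).

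The interferon-gamma receptor chains also overlapped between the genotypes. Ifngr1, the ligand-binding chain, was at 21.96, 21.0 and 20.0 CPM in the wild type libraries and 22.6, 16.4 and 21.2 CPM in the knockout libraries. Knockout replicate 2 was below the other 5 libraries, which lay within 20.0 to 22.6 CPM. The fold was 0.957 (interval 0.778 to 1.18, edgeR adjusted p = 0.868). Ifngr2, the chain that brings in Jak2, was at 20.1, 20.6 and 19.9 CPM in the wild type libraries and 19.4, 22.5 and 18.6 CPM in the knockout libraries. The wild type values spanned under 1 CPM and lay inside the knockout range, with a fold of 0.998 (interval 0.845 to 1.18, edgeR adjusted p = 0.994). Knockout replicate 2 thus held the lowest Ifngr1 and the highest Ifngr2 level, and its ratio of Ifngr1 to Ifngr2 counts was 0.729, where the other 5 libraries had 1.01 to 1.16.

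Jak1, the kinase common to both interferon receptors and to gp130, was at 165, 179 and 190 CPM in the wild type libraries and 176, 182 and 188 CPM in the knockout libraries. All 3 knockout values lay within the wild type range, and the fold was 1.02 (interval 0.888 to 1.18, edgeR adjusted p = 0.908). Tyk2, the kinase bound to Ifnar1, was at 42.4, 34.7 and 36.7 CPM in the wild type libraries and 34.3, 37.9 and 35.7 CPM in the knockout libraries. Wild type replicate 1 was above the other 5 libraries. Tyk2 had the lowest fold of the 8, 0.948 (interval 0.803 to 1.12, edgeR adjusted p = 0.783). Jak1 overlaps Raver2 in GRCm38.p6, a gene with 5 to 16 counts per library.

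Stat2, the interferon-specific subunit of ISGF3, was at 97.0, 82.2 and 86.3 CPM in the wild type libraries and 79.7, 85.8 and 107 CPM in the knockout libraries. The knockout libraries held its lowest and its highest value, so the groups overlapped. Wild type libraries averaged 88.5 ± 7.6 CPM and knockout libraries 90.8 ± 14.4 CPM (SD, n = 3 each), a fold of 1.03 (interval 0.844 to 1.25, edgeR adjusted p = 0.921). Stat2 overlaps Apof, an apolipoprotein gene with a wild type mean of 922 ± 52 CPM and a knockout mean of 851 ± 78 CPM (SD, n = 3 each). Reads from a stretch that both genes share can be counted for either or for none; no strand setting is stated for the counting.

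**Figure D1:**
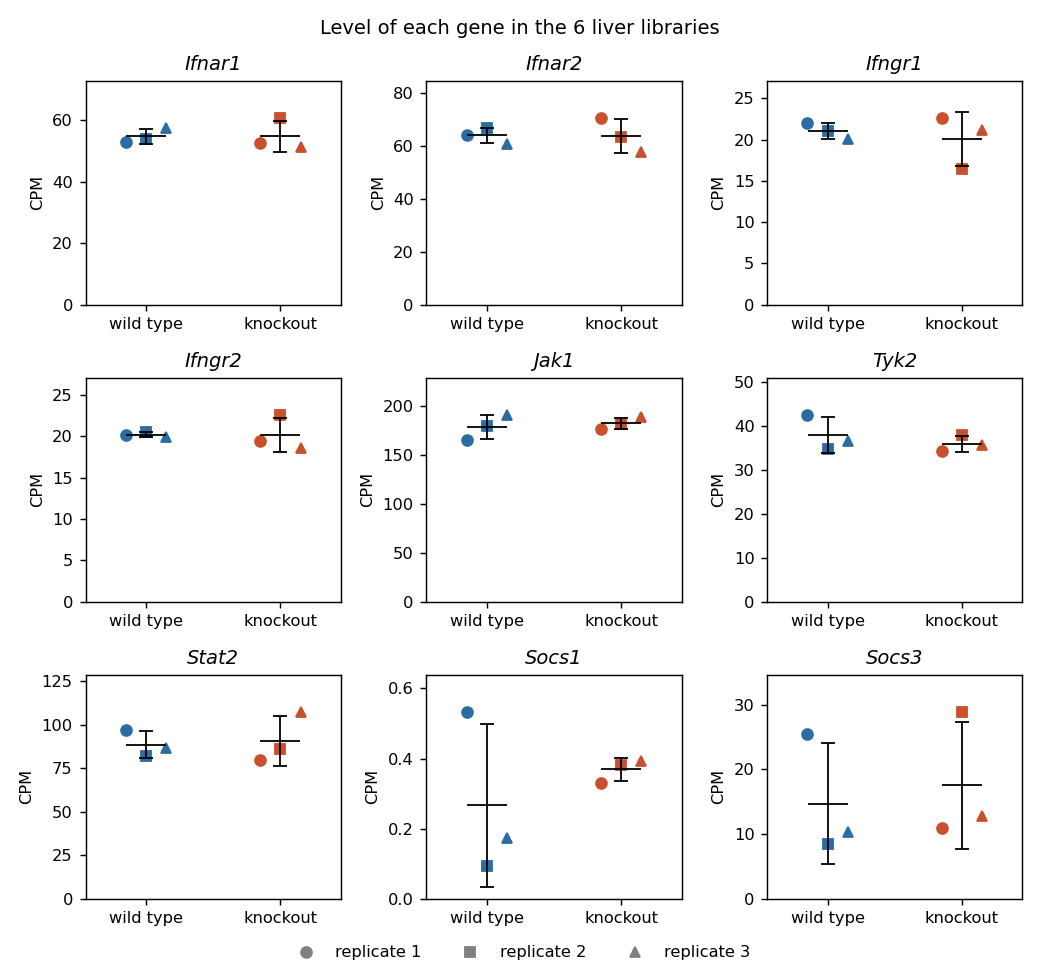
CPM of each of the 9 members in the 3 wild type (blue) and 3 knockout (orange) libraries, with a horizontal line for the mean, bars for the SD and a marker shape for the replicate number. In all 9 panels the groups overlap, and Socs3 has its 2 high values, 25.5 and 28.8 CPM, in wild type replicate 1 and knockout replicate 2.

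Socs1, the brake on interferon-gamma signalling, was barely detected. The wild type libraries had 10, 2 and 3 counts and the knockout libraries 7, 7 and 8. The wild type libraries held both the highest and the lowest count, while the knockout libraries lay between them. The filter on low counts removed it from the test. Summed over libraries, 15 wild type counts gave 0.261 CPM (95% exact Poisson interval 0.146 to 0.430) and 22 knockout counts 0.368 CPM (0.230 to 0.557). The ratio of knockout to wild type was 1.41 with an exact interval of 0.699 to 2.92. These intervals cover counting error only: they leave out the spread between libraries and may be too narrow. PCR copies were not told apart. The interval of the ratio includes equal levels, so these counts neither show a difference of Socs1 nor show that there is none. Because the spread between libraries is left out, a difference somewhat outside the interval is not excluded either.

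Among the 8 tested members Socs3 differed most between libraries, and it did so within each genotype. It was at 25.5, 8.42 and 10.3 CPM in the wild type libraries and 10.9, 28.8 and 12.8 CPM in the knockout libraries. Wild type replicate 1 and knockout replicate 2 were high and the other 4 libraries lay between 8.42 and 12.8 CPM. From the lowest to the highest library the level differed 3.42-fold, and a log2 span at least as wide was found in 3.53% of tested genes. The spans of the 7 other tested members ran from 0.20 to 0.46, below the median of 0.52 over all tested genes, which is not matched for level. The fold of Socs3 between genotypes was 1.19 with an interval of 0.566 to 2.49 (edgeR adjusted p = 0.855), so a 2-fold rise lay within these bounds. Its log2 fold change of 0.25 was 0.90 without wild type replicate 1 and -0.31 without knockout replicate 2 (edgeR adjusted p = 0.463 and 0.800).

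Some Stat3-type liver genes were highest in the same 2 libraries. Lcn2, the secreted iron-siderophore binder lipocalin 2, was at 13.8, 1.496 and 4.73 CPM in the wild type libraries and 1.28, 14.8 and 2.65 CPM in the knockout libraries. Wild type replicate 1 and knockout replicate 2 were again its 2 highest libraries. Saa1, an acute phase apolipoprotein, was at 431, 25.4 and 146 CPM in the wild type libraries and 20.2, 180 and 32.3 CPM in the knockout libraries. Those 2 libraries were highest for Saa1 as well, although wild type replicate 3 was also well above the remaining 3. The related gene Saa2 did not share this order. It was at 182, 7.90 and 37.9 CPM in the wild type libraries and 5.63, 17.0 and 9.33 CPM in the knockout libraries. Lcn2, Saa1 and Saa2 were named after their values were seen.

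Within the list of Stat3-type liver genes, 17 of 22 tested genes had wild type replicate 1 as the highest wild type library, where 36.4% of all tested genes did. Knockout replicate 2 was the highest knockout library for 12 of the 22, where 31.9% of all tested genes had that order, and both held for 10 of the 22, against 13.0%. These orders are within a genotype, so a gene such as Saa2 can meet both without having those 2 libraries highest of all. Stat3 itself was at 156, 126 and 138 CPM in the wild type libraries and 150, 117 and 114 CPM in the knockout libraries, so that knockout replicate 2 was not high. Il6ra, the ligand-binding chain of the interleukin-6 receptor, was lowest in the 2 libraries with high Socs3: it was at 35.0, 56.6 and 99.5 CPM in the wild type libraries and 92.6, 49.8 and 90.0 CPM in the knockout libraries. Il6st, which encodes gp130, ranged only from 193 to 214 CPM. Il6 itself had at most 2 counts in a library. Il6ra, Il6st and Il6 were named after their values were seen. The replicate with outlying clock genes, wild type replicate 1, is one of the 2 with high Socs3, and the part of the clock genes or of the acute phase genes in its level was not tested. Wild type replicate 1 and knockout replicate 2 also had the most non-unique alignments per gene count, at 2.13 and 2.65. The other libraries had 1.49 to 1.86, and the part of this measure in the Socs3 level was not tested.

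**Figure D2:**
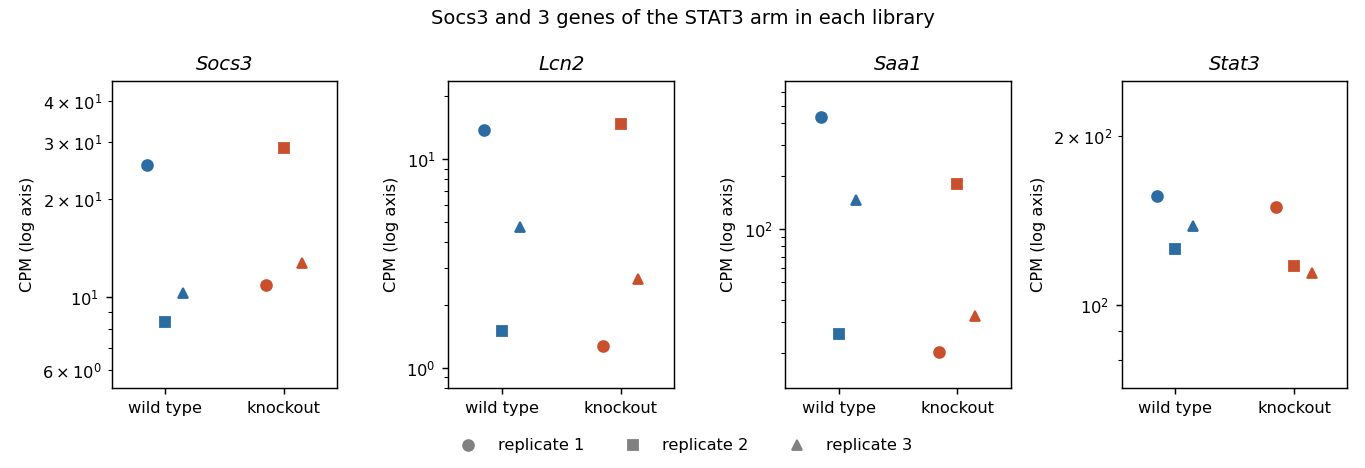
CPM on a log axis for Socs3, Lcn2, Saa1 and Stat3 in the 3 wild type (blue) and 3 knockout (orange) libraries, with a marker shape for the replicate number. Wild type replicate 1 and knockout replicate 2 are the 2 highest libraries for Socs3, Lcn2 and Saa1, while knockout replicate 2 is at 117 CPM for Stat3, near the lowest value of 114 CPM.

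The profile of Socs3 over the 6 libraries was matched against 11711 genes with a mean of at least 1 CPM, by the largest gap between centred log2 CPM values in any library. The 3 nearest were Mtap9, with a largest gap of 0.32, Cntnap1, with 0.39, and Adcy1, with 0.44, where the median gene had 1.05. Lcn2, with a largest gap of 1.24, and Saa1, with 1.69, were further from Socs3 than the median gene: they shared its 2 highest libraries but not the size of its differences. The matched genes of the Stat3-type list lay on both sides of the median gene, from Hp at 0.76 to Saa2 at 2.42. The 3 nearest of all 11711 genes were scarce, for example Mtap9 at 0.616 to 2.13 CPM. With 6 libraries and so many candidates, near matches at low counts are a description only. No other tested member spanned a log2 unit, so none was matched.

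Levels of different members were compared per kilobase of merged coding-transcript exons in GENCODE M21, as CPM per kilobase. Jak1 was highest, at a mean of 36.7 over the 6 libraries, followed by Stat2 at 20.4 and Ifnar2 at 20.2, whose ranges over libraries overlapped. Ifnar1 came next at 14.0 and Ifngr1 at 9.72, each apart from its neighbours in that order. Tyk2 at 6.64, Socs3 at 6.31 and Ifngr2 at 5.45 followed: the range of Socs3, 3.30 to 11.3, covered both of the others and that of Ifngr1. Socs1 was lowest at 0.109. The order rests on annotated lengths from a build other than those in the processing notes, and the transcript forms present in liver were not measured.

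No interferon ligand could be measured. Of 19 interferon genes in the files, 17 had 0 counts in all 6 libraries, which allows at most 0.0255 CPM for a gene over the 117592044 counts of all libraries (3 counts). Ifng had 3 counts and Ifnk 3 counts in total. Interferon-alpha genes are near-identical copies, and reads placed at several positions are not in the counts, so their level could be understated.

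Of the other kinases and transcription factors of the pathway, 7 tested genes are reported here and 0 were called. Irf9, the DNA-binding subunit of ISGF3, was at 43.3, 48.1 and 42.4 CPM in the wild type libraries and 36.7, 34.4 and 44.2 CPM in the knockout libraries. Knockout replicate 3 lay inside the wild type range, so the groups overlapped. The log2 fold change of Irf9 was at -0.21 ± 0.12 (SE, edgeR adjusted p = 0.421), and that of Stat5b, the growth hormone transducer, at -0.21 ± 0.13 (SE, edgeR adjusted p = 0.470). Stat3 was at -0.14 ± 0.13 (SE, edgeR adjusted p = 0.657). Jak2, the kinase carried by Ifngr2 and named after its values were seen, was at 0.01 ± 0.09 (SE, edgeR adjusted p = 0.978). Of the 7 tested genes of this list (8 in the files), 0 passed by edgeR or DESeq2. By edgeR, 0 of them were lower at an unadjusted p under 0.05, against 7.35% of all genes. The untested gene was Stat4, a lymphoid transducer of interleukin-12, with 6, 12 and 9 counts in the wild type and 2, 1 and 3 in the knockout libraries, named after its values were seen.

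Partners were also compared as a ratio of counts within each library, which no scaling can alter, for 4 pairs chosen after the values were seen. Stat2 counts per Irf9 count were 2.24, 1.71 and 2.04 across the wild type libraries and 2.17, 2.49 and 2.42 across the knockout libraries. The lowest knockout ratio lay inside the wild type range. The mean log2 difference was 0.25 (2-sided exact permutation p = 0.2, and p = 0.8 after Benjamini-Hochberg adjustment over the 4 ratios), where 3 against 3 libraries cannot go below 0.1. Ifnar1 per Ifnar2 count was 0.857 ± 0.074 in wild type and 0.861 ± 0.107 in knockout (SD, n = 3 each; exact permutation p = 1.0), and the ratios of Ifngr1 to Ifngr2 (exact permutation p = 1.0) and of Jak1 to Tyk2 (exact permutation p = 0.7) also overlapped.

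**Figure D3:**
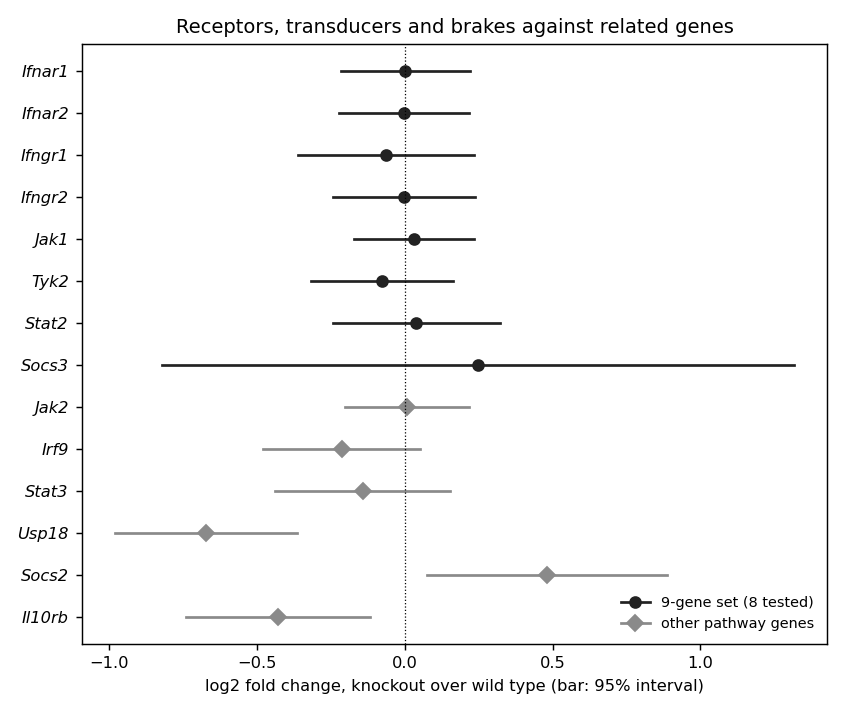
Log2 fold change of knockout over wild type with its 95% interval for the 8 tested members (black circles) and for 6 other genes of the pathway (grey diamonds). The intervals of the 8 members include 0 and that of Socs3 is widest, from -0.82 to 1.32, while those of Usp18 and Il10rb lie below 0 and that of Socs2 above it, with no edgeR adjusted p under 0.05 among the 14 genes.

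Ifnar2, Il10rb, Ifnar1 and Ifngr2 are consecutive protein-coding genes on chromosome 16 in GRCm38.p6. Il10rb, the chain shared by the interleukin-10, interleukin-22 and interferon-lambda receptors, was at 11.4, 9.82 and 12.1 CPM in the wild type libraries and 7.86, 7.75 and 9.13 CPM in the knockout libraries. Its knockout values all lay below the wild type values, with a log2 fold change of -0.43 ± 0.14 (SE) that did not pass (edgeR adjusted p = 0.192). Its partner for interleukin-22, Il22ra1, was at -0.60 ± 0.17 (SE, edgeR adjusted p = 0.166), and Il10ra at -0.22 ± 0.29 (SE, edgeR adjusted p = 0.769). Of the 4 tested receptors of this class, 3 were on the lower side, against 49.7% of all genes, and 0 passed. In 2 of the 4, Il10rb and Il22ra1, all knockout values lay below the wild type values, against 10.1% of all genes. Il28ra, the interferon-lambda receptor chain, was at 0.379 CPM or less in every library and was not tested.

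Among the gp130-family receptors, 9 were tested, 0 passed over all genes, and the median log2 fold change was 0.03. The 3 with the lowest p were Cntfr, the ciliary neurotrophic factor receptor, at 0.98 ± 0.30 (SE, edgeR adjusted p = 0.182), Csf3r, the receptor of a neutrophil growth factor, at -0.64 ± 0.23 (SE, edgeR adjusted p = 0.241), and the leptin receptor Lepr at 0.60 ± 0.25 (SE, edgeR adjusted p = 0.293). Of 11 ligands of the interleukin-6 and interleukin-10 families, 2 had enough counts to be tested: Ebi3 was at -1.05 ± 0.33 (SE, edgeR adjusted p = 0.187), with 5 to 15 counts per library, and Ctf1, which encodes cardiotrophin, at 0.04 ± 0.20 (SE, edgeR adjusted p = 0.949).

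Among the other brakes on the pathway, Usp18 was lower and Socs2 higher in every knockout library, neither past the threshold. Of 16 tested, 6 were lower and 10 higher, their median log2 fold change was 0.06, and edgeR called 0. DESeq2 called 1, against 3.54% of all genes. All knockout values lay below the wild type values in 2 of the 16, against 10.1% of all genes. They lay above them in 5 of the 16, against 10.7%, so separation was not particular to Usp18 and Socs2. Usp18, an interferon-induced protease that binds Ifnar2 and blocks its signalling, was at 16.1, 18.9 and 16.0 CPM in the wild type libraries and 9.19, 12.0 and 10.9 CPM in the knockout libraries. The groups did not overlap, and its log2 fold change was -0.67 ± 0.14 (SE, edgeR adjusted p = 0.083, DESeq2 adjusted p = 0.00553). Socs2, a brake on growth hormone signalling, was at 22.2, 20.9 and 21.2 CPM in the wild type libraries and 23.7, 26.7 and 39.4 CPM in the knockout libraries. The knockout values were all above the wild type values and knockout replicate 3 was highest, with a log2 fold change of 0.48 ± 0.18 (SE, edgeR adjusted p = 0.249). Pias3, an inhibitor of Stat3, was at 0.39 ± 0.15 (SE, edgeR adjusted p = 0.256).

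Downstream, the interferon target lists had lower medians than the receptors and transducers that feed them. Of 28 tested type I interferon targets 26 were lower in the knockout, against 49.7% of all genes. Their median log2 fold change was -0.48, where that of all genes was 0.0013 and that of the 8 tested members -0.0007. Of the 28, 13 had all knockout values below all wild type values, against 10.1% of all genes. At an unadjusted p under 0.05 16 were lower, against 7.35% of all genes, and edgeR called 1 over all genes, against 0.0878%. DESeq2 called 9 of the 28, all lower, where it called 1.58% of all genes lower. The edgeR call was Irf7, the factor that amplifies type I interferon production, which fell from 62.4 ± 1.9 to 35.4 ± 5.6 CPM (SD, n = 3 each; edgeR adjusted p = 0.0489). Of 22 tested interferon-gamma targets (23 in the files) 21 were lower, at a median of -0.70, with 15 lower at an unadjusted p under 0.05. In 11 of the 22 all knockout values lay below all wild type values. The 1 higher gene was Cxcl11, at 0.78 ± 0.41 (SE, edgeR adjusted p = 0.407). Of these 22, 12 passed by DESeq2, all lower, and 2 by edgeR. The 2 that passed by edgeR were the chemokine gene Cxcl9, at -1.06 ± 0.12 (SE, edgeR adjusted p = 0.0256), and the GTPase gene Ifi47, at -1.26 ± 0.17 (SE, edgeR adjusted p = 0.0356). With each of the 6 libraries left out in turn, Irf7 was called in 0 fits, Cxcl9 in 1 (without wild type replicate 3) and Ifi47 in 2 (without wild type replicate 3 or knockout replicate 2). These lists overlap with ones already known to be lower in these libraries and give no independent support.

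Markers of liver macrophages were lower beside the target lists. All 12 tested Kupffer cell and macrophage markers were lower, with -0.67 as the median log2 fold change, and 11 had no overlap between the groups, against 10.1% of all genes. At an unadjusted p under 0.05 all 12 were lower by edgeR, against 7.35%. Over all genes edgeR called 0 of them and DESeq2 called 9, against 0.0878% and 1.58% of all genes. Their summed level was 742 to 836 CPM in wild type and 400 to 621 CPM in knockout libraries. Of 9 T and NK cell markers 4 were tested and had negative log2 fold changes, with 0 called by edgeR or DESeq2; the 9 together summed to 6.41 to 7.97 CPM against 3.39 to 4.97 CPM. The 4 B cell markers also had negative log2 fold changes and 0 calls, and summed to 3.55 to 4.47 CPM against 1.87 to 2.67 CPM. The median log2 fold change was -0.64 for the B cell markers and -0.38 for the tested T and NK cell markers. No overlap was found in 2 of the 4 B cell markers and 1 of the 4 T and NK cell markers, against 10.1% of all genes. Summed endothelial markers overlapped, at 336 to 356 CPM against 299 to 376 CPM, and so did summed stellate cell markers, at 266 to 322 CPM against 227 to 336 CPM. Of the 6 endothelial markers 4 had negative and 2 positive log2 fold changes, with 0 calls by edgeR or DESeq2. In 1 of the 6 all knockout values lay below the wild type values, against 10.1% of all genes. It was Cdh5, named after its values were seen, at -0.41 ± 0.11 (SE, edgeR adjusted p = 0.156). Neutrophil markers were at 0.514 to 2.02 CPM against 0.491 to 0.758 CPM, and cholangiocyte markers at 5.52 to 8.77 CPM against 4.62 to 8.14 CPM. Of 6 hepatocyte markers 5 had positive log2 fold changes, with a median of 0.20 and 0 calls by edgeR or DESeq2, and their sums overlapped at 81438 to 100582 CPM in wild type and 88852 to 113434 CPM in knockout libraries. The part of cell composition in the lower target genes and Usp18 was not tested.

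The list of Stat3-type liver genes, the arm that Socs3 restrains, had 19 of 22 tested genes on the lower side, against 49.7% of all genes, with -0.19 as the median log2 fold change. Over all genes edgeR called 0, and DESeq2 called 3 lower (Orm1, Apcs and Hpx) and 1 higher (Saa4, DESeq2 adjusted p = 0.0484). DESeq2 called 1.58% of all genes lower and 3.54% in either direction. Wild type replicate 1 was the highest wild type library for 17 of the 22, and its part in this direction was not tested. The 3 with the lowest p were the acute phase genes Orm1, at -0.72 ± 0.21 (SE, edgeR adjusted p = 0.159), Apcs, at -0.66 ± 0.19 (SE, edgeR adjusted p = 0.166), and Hpx, the heme carrier hemopexin, at -0.49 ± 0.15 (SE, edgeR adjusted p = 0.179). These 3 of the 22 had knockout values that all lay under those of the wild type, where 10.1% of all genes did. The share without overlap is thus near the background.

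**Figure D4:**
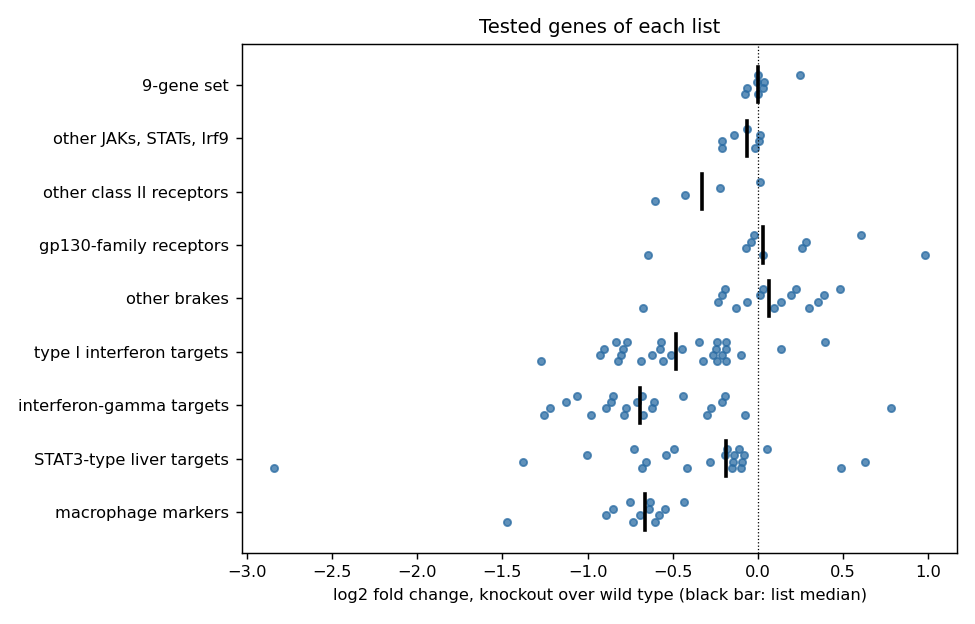
Log2 fold change of knockout over wild type for each tested gene (points) of 9 lists, with the list median as a black bar. The 9-gene set, with 8 tested, lies between -0.08 and 0.25, while the medians of the type I interferon targets, interferon-gamma targets and macrophage markers are at -0.48, -0.70 and -0.67.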

How the data were processed

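RNA-seq counts from 6 libraries were analysed, 3 per genotype. The authors deposited 1 table per library of whole-number read counts by gene symbol, not normalized. Per the submitters' processing notes, CASAVA 1.8.2, TopHat2 2.0.8b and HTSeq were used and the builds mm9 and hg19 are named, with no role or order. Neither annotation nor strand setting is stated in those notes. The 5 rows that name no gene were left out; the row for reads in no gene held 9.65% to 12.5% of uniquely placed reads.

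The test was edgeR 4.0.16 (R 4.3.3): filterByExpr (minimum count 10), TMM, a quasi-likelihood fit with genotype as the only term, and Benjamini-Hochberg adjustment over 12522 genes at 0.05. Standard errors and 95% intervals were derived from the F statistic. The fit was tested on simulated data. Alternatives were DESeq2 1.42.0, 3 other scalings, no filter, the replicate number as a block, and each library left out. Likeness used log2 CPM with a prior count of 2. From each list every gene past the threshold was named, or else up to 3 by lowest p. Apart from the members and the nearest matches to Socs3, any other gene was picked with its values known. 1 gene of the pathway lists is not reported here. The members and lists were chosen with earlier results of these data known.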

Additional observations from a re-analysis of the deposited data

How the results depend on the processing

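Of the tested members 0 were called under each of the 12 alternatives to the edgeR fit: 9 were tested with no filter and 8 in the others. The members' edgeR or DESeq2 adjusted p ran from 0.463 to 0.999 over 96 values, of which 27 changed sign, all without passing. Ifnar1 was at -0.0485 with total-count scaling, -0.0417 with upper-quartile scaling, -0.0008 with no filter and -0.0018 with the replicate block. Jak1 was at -0.0149 and Stat2 at -0.002 with total-count scaling, and at -0.0107 and -0.0053 with upper-quartile scaling. DESeq2 put Ifnar2 at 0.0025 and Ifngr2 at 0.0015. With a library left out, log2 fold changes ran from -0.0769 to 0.0491 for Ifnar1, -0.0795 to 0.0662 for Ifnar2, -0.157 to 0.0616 for Ifngr1, -0.0877 to 0.0536 for Ifngr2, -0.0204 to 0.0809 for Jak1, -0.14 to 0.0103 for Tyk2, -0.10 to 0.12 for Stat2 and -0.31 to 0.90 for Socs3. Socs1, untested in the filtered fit, was at 0.48 with no filter (edgeR adjusted p = 0.776).

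Over all genes the 27 calls became 435 by DESeq2, 133 with no filter and 3 to 36 with a library left out; the cause was not tested. With the replicate block 1 gene was called, but the shared numbers gave no sign of pairing: deviations of same-numbered libraries correlated at -0.08, -0.10 and -0.04 across genes, and no library correlated best with its own number. For Usp18, Irf7, Cxcl9 and Ifi47 the same 12 alternatives were added after their values were seen: Usp18 was called in 1, by DESeq2, Irf7 in 5, Cxcl9 in 6 and Ifi47 in 7, and all kept a negative log2 fold change. The depth limits Socs1 and the interferon ligands.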
